A study of Rattus norvegicus with 12 samples.

Results

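The genes examined here encode the subunits and assembly factors of respiratory complex I, and were measured in a pair of related rat insulinoma cell lines that differ in their susceptibility to rotenone, a complex I inhibitor. They were chosen by name: every probe set to which the platform annotation gives a single gene symbol beginning with Nduf. That rule found 46 probe sets for 42 genes, out of 31099 probe sets on the array, of which 20832 carry 1 symbol and together stand for 14218 genes. The labels describe CRI-G1-RR as the rotenone resistant line and CRI-G1-RS as the rotenone sensitive one. CRI-G1 derives from a rat islet cell tumour that makes insulin, and RS is 1 subclone of it, so the comparison is between 1 clonal derivative and the line it came from. Neither line was treated, and both were kept in serum-supplemented DMEM of high glucose content containing Glutamax. RNA from 6 RR and 6 RS samples, taken as biological replicates from different passages, was hybridized to 12 Affymetrix rat genome arrays, 1 per sample. Passages were collected in pairs according to the labels, which do not say which samples form a pair. These are bulk samples, so fewer cells expressing a gene and less RNA per cell cannot be told apart.

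Complex I takes electrons from NADH, passes them along a flavin and a chain of iron-sulfur clusters in an arm that projects into the mitochondrial matrix, and hands them to ubiquinone, while an arm buried in the inner membrane pumps protons. A small set of core subunits carries the chemistry and is shared with bacteria. The accessory subunits surround the core, and assembly factors help to build the complex without staying in it. Rotenone blocks the step at which ubiquinone is reduced, and in beta cells mitochondrial respiration is what couples glucose to insulin secretion. Core subunits encoded by mitochondrial DNA, Ndufs5, Ndufa10, Ndufaf2 and Ndufaf6 were not analysed here.

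The values are linear signals per probe set, scaled by the authors to a common array mean. Signals below are as deposited, given as the lowest, median and highest of the 6 arrays of a line. Log2 fold changes are RS over RR, so that negative values mean less signal in RS cells, and come from limma fitted to log2(signal + 16) of all 31099 probe sets after quantile normalization. A gene is called higher or lower at a Benjamini-Hochberg adjusted p under 0.05, and is represented by its probe set of highest mean signal. Adding 16 understates the changes of dim probe sets. Signals of different genes come from different probes and are not compared with each other.

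Before the genes themselves, the lines were checked against markers. The summed signal of 6 beta cell markers was 10200 to 11580 in RR and 10820 to 13370 in RS cells, and that of 5 neuroendocrine markers 9092 to 12340 and 11150 to 14000. These ranges overlap, but single markers differed: of the beta cell list 3 were called higher in RS cells (Nkx6-1 at a log2 fold change of 1.31, Ins2 at 1.30 and Pdx1 at 1.09), 1 was called lower (Slc2a2, the beta cell glucose transporter, whose mean signal was under 50) and 2 were not called. Of the neuroendocrine list 4 were called higher (Pcsk2 at 0.97, Scg2 at 0.89, Syp at 0.66 and Chga at 0.25) and 1 was not. The glucagon gene, a marker of another islet cell type, had high signal in both lines, as its list of 3 summed to 6879 to 7806 in RR and 5997 to 7585 in RS cells. Summed acinar (5 genes), endothelial (3) and immune (3) markers stayed under 124 on every array, and the 5 fibroblast markers summed to 225.8 to 286.6 in RR and 302.1 to 380.7 in RS cells, with 1 of them, Pdgfra, called higher. The ratio of 3′ to 5′ signal of beta-actin, a measure of RNA integrity, was 3.06 to 3.79 on the RR arrays and 2.75 to 8.28 on the RS arrays, with a median of 2.95. That of GAPDH was 1.23 to 1.29 on the RR and 1.23 to 1.53 on the RS arrays. The RS array with the beta-actin ratio of 8.28 is not identified here. RS replicate 2 had the lowest mean correlation with its own line, 0.979, where the other 11 arrays had 0.981 to 0.985. The part of these differences in the results was not tested, but without RS replicate 2 the Nduf counts were 23 probe sets called, 8 genes higher and 15 lower, close to those with it.

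Of the 42 Nduf genes, 16 were lower in RS cells, 7 were higher and 19 were not called. The genes lower in RS cells included 5 of the 6 core subunits measured. No assembly factor was called lower, but only 3 of the 6 had a mean signal of at least 500. The changes were small: only the assembly factor Ndufaf4, at 2.08-fold, passed 2-fold, and Ndufa6, an accessory subunit of the matrix arm, had the largest decrease among complex I subunits, with a log2 fold change of -0.64. By probe sets, 23 of 46 were called, against 31.7% of all probe sets. By genes, 54.8% were called, against 39.2% of all genes, but 38 of the 42 had a mean signal of at least 500, and among all genes that bright 57.5% were called. The share of members called was thus close to that of bright genes. The split by direction was 38.1% lower and 16.7% higher among members, against 18.3% and 21.0% among all genes and 26.3% and 31.3% among bright genes. The median log2 fold change was -0.08 over the members, 0.02 over all genes and 0.03 over bright genes. For 19 members the arrays of the lines did not overlap, 15 of them lower and 4 higher in RS cells, where 27.2% of all genes and 45.1% of bright genes did not overlap. Replicates of these genes were close together, with a median coefficient of variation of 6.74% in RR and 6.62% in RS cells.

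**Figure D1:**
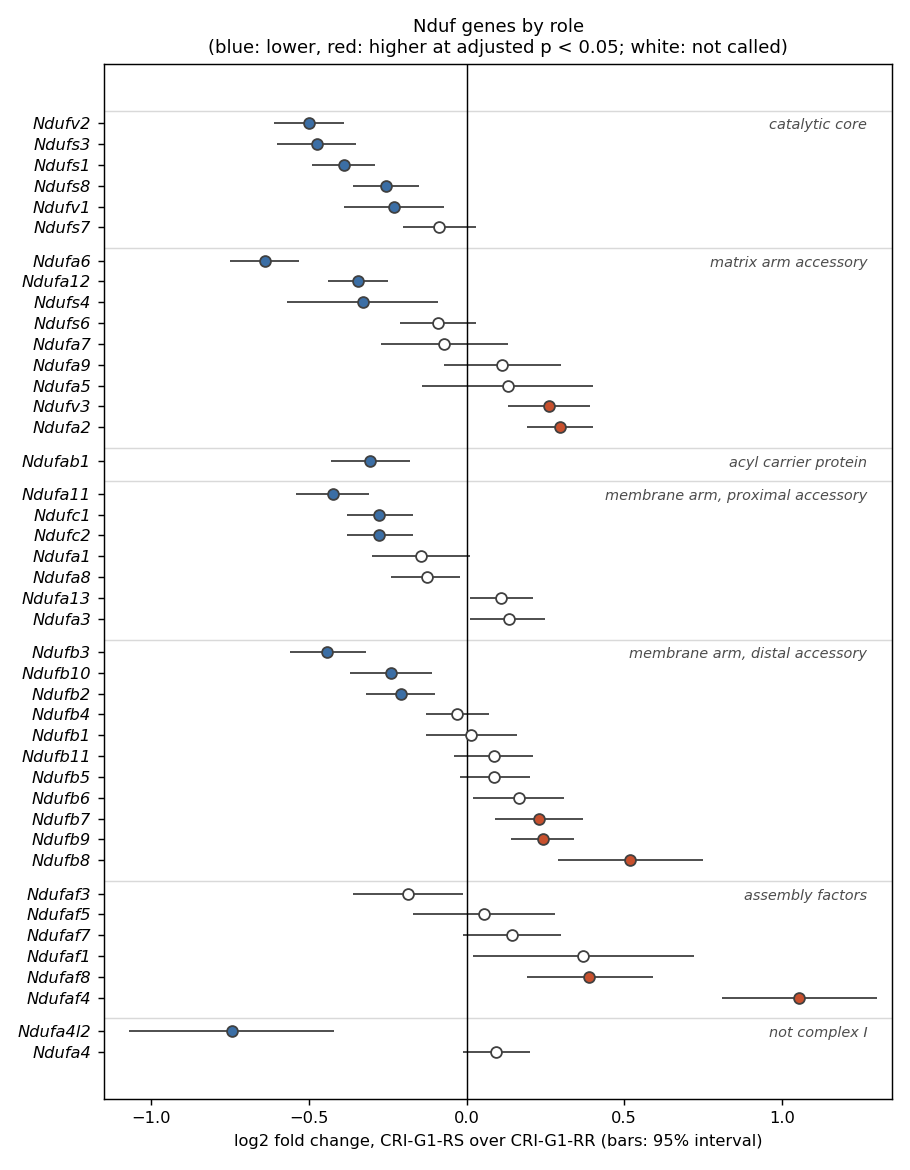
Log2 fold change of each of the 42 Nduf genes, RS over RR cells, with its 95% interval from limma, grouped by the role of the protein (6 arrays per line; blue lower, red higher, white not called). 5 of 6 core subunits lie below zero and are called, the accessory subunits spread to both sides, and both called assembly factors lie above zero.

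The promoters of the genes that changed are shown for 3 of them, because they include Ndufaf4 and Ndufa6, the genes that moved farthest in each direction among complex I genes, and because all 3 hold the same motif. Promoters of 300 bases, from 250 before to 50 after the RefSeq start site on GRCr8, were found for 40 of the 42 members, all but Ndufa8 and Ndufb9. Each was searched on both strands for the core site of NRF-1 (GCATGCGC), a transcription factor known for its sites in respiratory chain genes, for that of GABP (CCGGAAGT), also called NRF-2, and for that of ERR-alpha (AAGGTCA). The 100 bases around the NRF-1 site of each gene are printed 5′ to 3′ in the direction of the gene, with the match in capitals. For Ndufa6 the stretch is chr7:115750368-115750467 on the minus strand, for Ndufa11, a membrane arm subunit lower in RS cells, chr9:1637475-1637574 on the plus strand, and for Ndufaf4 chr5:43401592-43401691 on the plus strand.
Ndufa6: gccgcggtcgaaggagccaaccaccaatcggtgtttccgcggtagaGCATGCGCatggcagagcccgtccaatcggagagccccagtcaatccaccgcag
Ndufa11: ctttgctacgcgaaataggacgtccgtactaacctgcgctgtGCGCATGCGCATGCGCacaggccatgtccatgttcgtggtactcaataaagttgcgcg
Ndufaf4: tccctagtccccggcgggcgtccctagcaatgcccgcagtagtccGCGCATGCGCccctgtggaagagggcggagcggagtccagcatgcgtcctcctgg
The match begins 104 bases before the start site in Ndufa6, 97 in Ndufa11 and 158 in Ndufaf4. The motif and its reverse complement overlap in the Ndufa11 and Ndufaf4 promoters, so the capitals there mark runs of 16 and 10 bases with matches on both strands. A 4th member, Ndufaf5, also held the NRF-1 site. In all, 4 of 40 member promoters (10.0%) held it, against 2.66% of 27457 promoters and 4.29% of the 11701 promoters of genes on the array. The GABP site was found in Ndufa13, Ndufb7 and Ndufs1 (7.5%, against 4.01% of all and 6.82% of array genes), and the ERR-alpha site in Ndufb2, Ndufb4 and Ndufs6 (7.5%, against 4.37% and 3.15%). Of the 4 promoters with an NRF-1 site, 2 belong to genes lower in RS cells, 1 to a gene that was higher and 1 to a gene not called. They are too few to compare the directions.

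All 6 core subunits measured had a negative log2 fold change, with a median of -0.32, and 5 were called lower. Ndufv2, which holds an iron-sulfur cluster close to the entry of electrons, had signals of 2103, 2184 and 2395 in RR and 1474, 1534 and 1602 in RS cells. Its log2 fold change was -0.50 (SE 0.05, adjusted p = 4.68e-06). No RS array reached the lowest RR array. Ndufs3, a core subunit near the quinone site, had signals of 1559, 1644 and 1793 in RR and 1116, 1188 and 1285 in RS cells (log2 fold change -0.47, SE 0.06, adjusted p = 2.41e-05), again without overlap. Ndufs1, which carries several iron-sulfur clusters, ran from 1036 through 1119 to 1141 in RR and from 803.8 through 836.7 to 892.6 in RS cells. The lines did not overlap for this gene either, and its log2 fold change was -0.39 (SE 0.05, adjusted p = 2.91e-05). Ndufs8, whose clusters lead towards the quinone site, had signals of 791.3, 844.8 and 871.4 in RR and 661.2, 695.1 and 741.2 in RS cells. All RS arrays were below all RR arrays, with a log2 fold change of -0.25 (SE 0.05, adjusted p = 0.00144).

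The last pair of core subunits changed least. Ndufv1, which binds NADH and the flavin, had signals of 1058, 1179 and 1375 in RR and 853.2, 1030 and 1059 in RS cells (log2 fold change -0.23, SE 0.07, adjusted p = 0.0315). The lines met at their edges, with 5 of 6 RS arrays below all RR arrays. Its call was lost, with adjusted p-values of 0.0507 to 0.0634, when RR replicate 2, 5 or 6 or RS replicate 3 or 4 was left out, while its direction stayed. Ndufs7, which carries the last cluster before ubiquinone, had signals of 1144, 1186 and 1241 in RR and 1060, 1108 and 1182 in RS cells. These ranges overlapped, and its log2 fold change of -0.09 was not called (adjusted p = 0.262, 95% interval -0.20 to 0.03).

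**Figure D2:**
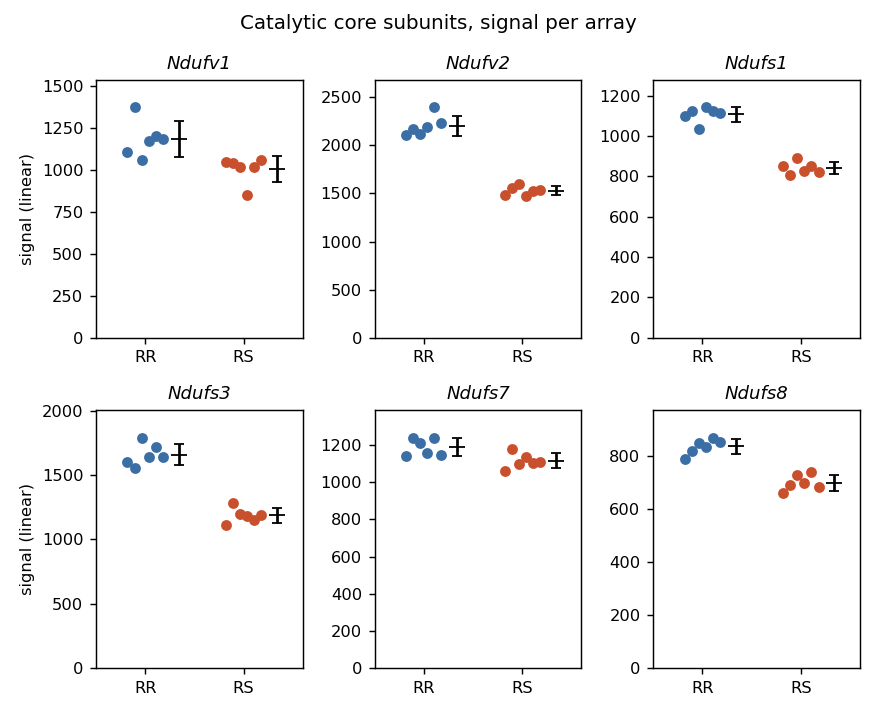
Deposited linear signal of the 6 core subunits on each of the 6 RR and 6 RS arrays (points), with mean and SD beside them, on axes that start at 0. RS points lie below all RR points for Ndufv2, Ndufs1, Ndufs3 and Ndufs8, while the lines overlap for Ndufv1 and Ndufs7.

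The accessory subunits of the matrix arm went both ways. Of 9, 3 were lower (Ndufa6, Ndufa12 and Ndufs4), 2 were higher (Ndufa2 and Ndufv3) and 4 were not called, with a median log2 fold change of -0.07. Ndufa6, a small protein of the LYR family that docks the mitochondrial acyl carrier protein onto the complex, had signals of 2670, 2974 and 3076 in RR and 1776, 1829 and 1904 in RS cells. These ranges lie well apart (log2 fold change -0.64, SE 0.05, adjusted p = 5.94e-07). Ndufa12, a matrix arm subunit related to an assembly factor, had signals of 6500, 6769 and 7263 in RR and 4700, 5047 and 5715 in RS cells, again without overlap (log2 fold change -0.34, SE 0.04, adjusted p = 5.16e-05). Ndufs4, whose loss causes complex I deficiency in humans and mice, had signals of 539, 681.6 and 907.1 in RR and 496.9, 547.6 and 692.6 in RS cells. The lines overlapped, and the log2 fold change of -0.33 (SE 0.11, adjusted p = 0.0400) lost its call when any array other than RR replicate 5 or RS replicate 6 was left out (adjusted p = 0.0515 to 0.0847). With centring on array medians its adjusted p was 0.0666, with the deposited scaling alone 0.0551 and with a pseudocount of 1 it was 0.0512.

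In the opposite direction, Ndufa2, a matrix arm subunit with a thioredoxin-like fold, had signals of 2083, 2139 and 2201 in RR and 2464, 2509 and 2774 in RS cells. Every RS array was above every RR array (log2 fold change 0.30, SE 0.05, adjusted p = 3.15e-04). Ndufv3, which sits beside the NADH-binding subunits, had signals of 1444, 1539 and 1634 in RR and 1714, 1831 and 2009 in RS cells, without overlap (log2 fold change 0.26, SE 0.06, adjusted p = 0.00394). A further probe set for Ndufv3 gave 0.24 and was not called (adjusted p = 0.0816). Ndufa5, Ndufa7, Ndufa9 and Ndufs6 were not called, with log2 fold changes between -0.09 and 0.13. Their 95% intervals reached from -0.27 to 0.40 at most. For Ndufa7 and Ndufa9 a further probe set had the opposite sign, and none of these 4 probe sets was called.

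Ndufab1, the mitochondrial acyl carrier protein, serves fatty acid synthesis and is a subunit of both arms, where it binds Ndufa6 and Ndufb9. Its signals were 1778, 2024 and 2216 in RR and 1574, 1605 and 1674 in RS cells, without overlap (log2 fold change -0.31, SE 0.06, adjusted p = 0.00127). Its partners differed in direction, as Ndufa6 was lower and Ndufb9 higher in RS cells.

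In the part of the membrane arm next to the matrix arm, 3 of 7 accessory subunits were lower, none was higher and 4 were not called, with a median log2 fold change of -0.15. Ndufa11, which lies where complex I meets complex III in supercomplexes, had signals of 3630, 3900 and 4227 in RR and 2657, 2810 and 3055 in RS cells, and the lines did not overlap (log2 fold change -0.42, SE 0.05, adjusted p = 3.04e-05). Ndufc1 and Ndufc2, which neighbour each other in the complex, both changed by -0.28 on the log2 scale (adjusted p = 5.62e-04 and 5.14e-04), and neither overlapped between the lines. Ndufa8 also did not overlap, at 2566, 2682 and 2751 in RR and 2286, 2313 and 2500 in RS cells, but its log2 fold change of -0.13 was not called (adjusted p = 0.0787). It passed under centring on array medians, where it was -0.20 (adjusted p = 0.0177), and under 4 further alternatives. Ndufa1, Ndufa3 and Ndufa13 were not called, at -0.15, 0.13 and 0.11.

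The distal membrane arm was evenly divided, with 3 of 11 subunits lower (Ndufb2, Ndufb3 and Ndufb10), 3 higher (Ndufb7, Ndufb8 and Ndufb9) and 5 not called, and a median log2 fold change of 0.09. Ndufb3 had signals of 2434, 2686 and 2913 in RR and 1832, 1905 and 2120 in RS cells. Its log2 fold change was -0.44 (SE 0.06, adjusted p = 4.14e-05), and no RS array reached the RR range. Ndufb10 (-0.24, adjusted p = 0.00925) and Ndufb2 (-0.21, adjusted p = 0.00666) were also lower without overlap. Ndufb8, which is widely used as a protein marker of assembled complex I, had signals of 380.6, 410.3 and 543.2 in RR and 554.7, 614.9 and 792.5 in RS cells. It was the subunit with the largest increase, a log2 fold change of 0.52 (SE 0.11, adjusted p = 0.0019), and the highest RR array lay just under the lowest RS array.

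Ndufb9, another LYR protein, had signals of 4480, 4825 and 5043 in RR and 4849, 5345 and 6238 in RS cells, and 5 of 6 RS arrays were above all RR arrays. Its log2 fold change of 0.24 (SE 0.04, adjusted p = 8.98e-04) depended on the scaling, since it was 0.15 (adjusted p = 0.123) with centring on array medians and 0.17 (adjusted p = 0.0595) with the deposited scaling alone. Ndufb7, a subunit on the face of the intermembrane space, had signals of 1210, 1249 and 1455 in RR and 1396, 1472 and 1689 in RS cells. The lines overlapped, with 4 RS arrays above all RR arrays (log2 fold change 0.23, SE 0.07, adjusted p = 0.0172). Ndufb1, Ndufb4, Ndufb5, Ndufb6 and Ndufb11 were not called, with log2 fold changes of -0.03 to 0.17, of which those of Ndufb1, Ndufb5 and Ndufb11 turned negative with centring on array medians (-0.04, -0.01 and -0.01).

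Of the 6 assembly factors, 2 were higher (33.3%), none was called lower and 4 were not called, with a median log2 fold change of 0.26. Of all genes 21.0% were called higher and 18.3% lower, and of bright genes 31.3% and 26.3%. Ndufaf4, which acts with Ndufaf3 in the early assembly of the matrix arm, had signals of 362.8, 499.3 and 587.1 in RR and 840.2, 1096 and 1169 in RS cells. The lowest RS array was well above the highest RR array. The log2 fold change was 1.06 (SE 0.11, adjusted p = 9.81e-06), the largest among all Nduf genes. GRCr8 annotates 5 further loci named as copies of Ndufaf4, so that probes for it could also bind their transcripts. Ndufaf8, the partner that stabilizes Ndufaf5, had signals of 485.5, 508.6 and 613.1 in RR and 584.1, 715 and 803.3 in RS cells, and 5 of 6 RS arrays were above all RR arrays (log2 fold change 0.39, SE 0.09, adjusted p = 0.00461).

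The other 4 factors did not pass the test. Ndufaf5, an enzyme that hydroxylates Ndufs7, had signals of 358.8, 487.7 and 516.7 in RR and 423.9, 486.2 and 595.4 in RS cells (log2 fold change 0.06, adjusted p = 0.756). Ndufaf3 had signals of 501.1, 598.8 and 659.7 in RR and 470.8, 518.5 and 581 in RS cells (log2 fold change -0.19, adjusted p = 0.106), so that the partners Ndufaf3 and Ndufaf4 had opposite signs. Without RR replicate 2 it was called lower, at -0.23 (adjusted p = 0.0392). Ndufaf7, a methyltransferase, was dim, at 145.7, 165.5 and 187.8 in RR and 174.2, 177.7 and 215.2 in RS cells (log2 fold change 0.15, adjusted p = 0.148). A further probe set for Ndufaf7 also gave 0.15 (adjusted p = 0.167). Ndufaf1, an early factor for the membrane arm, was dimmer still, at 51.3, 69.33 and 86.29 in RR and 57.6, 98.64 and 123.7 in RS cells (log2 fold change 0.37, adjusted p = 0.103). Leaving out RS replicate 2, its lowest RS array, gave 0.50 (adjusted p = 0.00832).

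**Figure D3:**
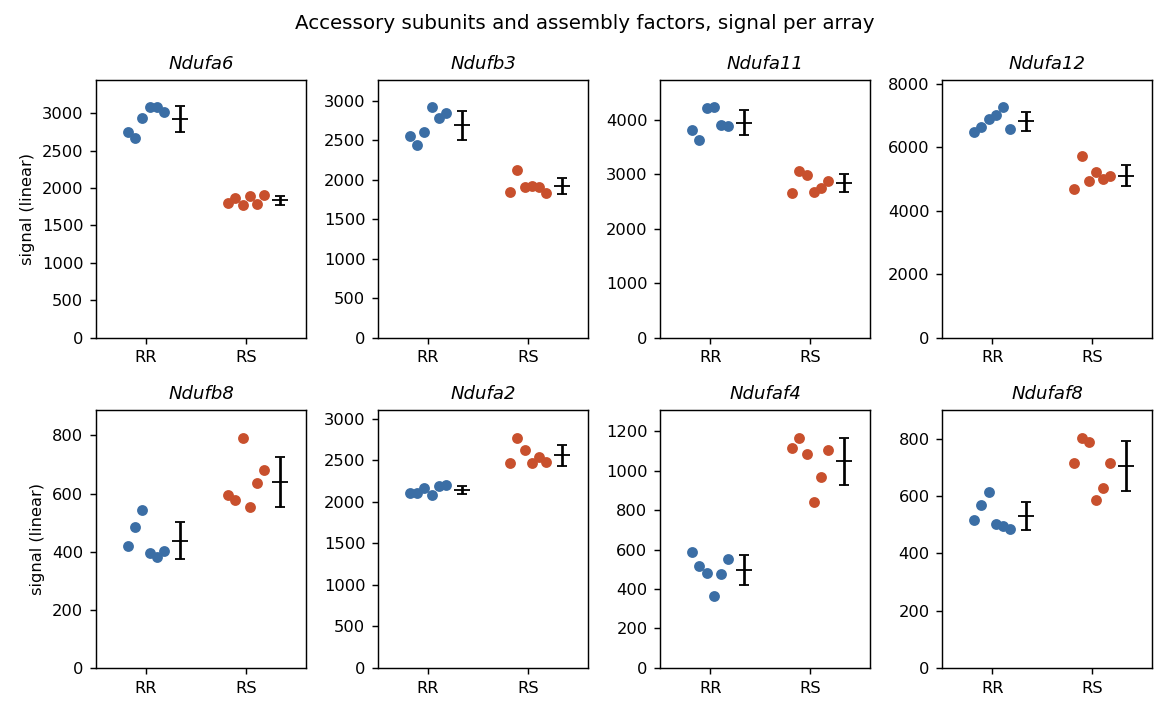
Deposited linear signal of 6 accessory subunits and 2 assembly factors on each RR and RS array (points, 6 per line), with mean and SD beside them, on axes that start at 0. RS points lie below all RR points for Ndufa6, Ndufb3, Ndufa11 and Ndufa12, above them for Ndufb8, Ndufa2 and Ndufaf4, and overlap them at 1 array for Ndufaf8.

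A pair of genes carries the Nduf name but is not part of complex I. Ndufa4, now placed in complex IV, had signals of 3991, 4490 and 4806 in RR and 4230, 4362 and 5091 in RS cells, and its log2 fold change of 0.09 was not called (adjusted p = 0.182, 95% interval -0.01 to 0.20). Ndufa4 changed by 0.03 with the deposited scaling alone and by 0.01 with centring on array medians. Its paralogue Ndufa4l2, known as a gene induced by low oxygen, was lower in RS cells, by a log2 value of -0.74 (SE 0.15, adjusted p = 0.00167). Its signals were dim and did not overlap, at 77.05, 90.65 and 97.97 in RR and 26.25, 52.55 and 66.04 in RS cells. Without this pair, 15 of 40 genes were lower and 7 higher.

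Other genes that serve the same chain were counted in the same fit. Among 45 genes listed by symbol as nuclear-encoded subunits of complexes II to V, 11 were higher (24.4%) and 2 were lower (4.44%). The other 32 were not called, and the median log2 fold change over the list was 0.03. For comparison, 21.0% of all genes were called higher and 18.3% lower, and of bright genes 31.3% and 26.3%. The list includes Cox6c-ps1 and Atp5if1, which are not subunits. The lower pair was Sdhd of complex II (-0.16, adjusted p = 0.0275) and Atp5f1e of the ATP synthase (-0.24, adjusted p = 0.00478). Of 34 complex I subunits 15 were lower (44.1%) and 5 higher (14.7%), but the difference between complexes was not tested. The lists also differ in brightness. All 34 complex I subunits had a mean signal of at least 500, against 37 of the 45 other genes and 9 of the 17 in complex IV. Among 73 mitochondrial ribosomal proteins, 18 were higher (24.7%) and 17 lower (23.3%), with a median of -0.01.

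Assembly factors of complex I that do not carry the Nduf name were described separately. Of 11, 3 were higher (27.3%, against 21.0% of all genes), none was lower and 8 were not called. The median log2 fold change was 0.17. Those higher were Dmac1 (0.47, adjusted p = 5.76e-05), Lyrm2 (0.27, adjusted p = 0.00228) and Acad9 (0.20, adjusted p = 0.0143). Among 12 genes that build the iron-sulfur clusters complex I depends on, 4 were lower (33.3%) and 2 higher (16.7%). The shares were 18.3% lower and 21.0% higher over all genes, and 26.3% and 31.3% over bright genes. Of the 12, 8 had a mean signal of at least 500. The largest decrease in this list was that of Hscb, a co-chaperone of cluster transfer (-0.86, adjusted p = 6.09e-07).

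Among 11 genes of NADH shuttles and of other routes to ubiquinone, 7 were higher (63.6%) and 1 was lower (9.09%), with a median of 0.26. All genes had shares of 21.0% higher and 18.3% lower, and bright genes 31.3% and 26.3%. Of the 11, 5 had a mean signal of at least 500. Got1, the cytosolic aspartate aminotransferase of the malate-aspartate shuttle, rose by 1.19 on the log2 scale (adjusted p = 2.76e-07). Gpd2, which passes electrons to ubiquinone without complex I, rose by 0.56 (adjusted p = 2.21e-05). The lower gene was Nnt, the transhydrogenase that makes mitochondrial NADPH from NADH (-0.46, adjusted p = 4.27e-05). Among 11 regulators of respiratory chain genes, Ppargc1b (0.44, adjusted p = 0.00563) and Yy1 (0.30, adjusted p = 4.95e-04) were higher and Esrrg (-0.47, adjusted p = 4.39e-04) was lower. That is 18.2% higher and 9.09% lower, both below the shares of all genes.

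**Figure D4:**
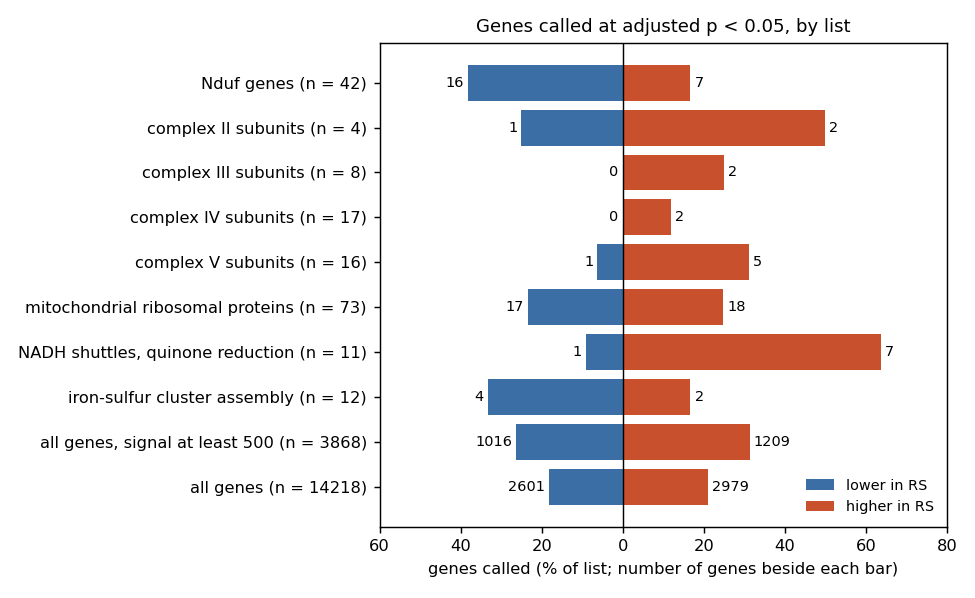
Share of each list called lower (left, blue) or higher (right, red) in RS cells, in percent of its genes, with the number of genes beside each bar; the 2 lowest bars are all bright genes and all genes on the array. Nduf genes have 16 lower and 7 higher, whereas no gene listed under complexes III and IV was called lower. Of the 17 complex IV genes, only 9 had a mean signal of at least 500.

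Each Nduf gene was also set beside its neighbours on the chromosome, the 50 nearest other genes on GRCr8 whose mean signal reached 100. Of the 23 Nduf genes called, 22 had the sign of their neighbours' median (95.7%). This held for 15 of 16 lower genes, all but Ndufc1, and for all 7 higher genes. Some of these medians were very small, so that a match of sign says little. That around Ndufb10 was -0.003, with 23 positive and 27 negative neighbours. Around Ndufb7 it was 0.017, below the median of 0.026 over all other genes at that signal. Among 4641 other called genes at that signal, 69.9% had the sign of their neighbours' median. Over the 42 members the log2 fold change and the neighbours' median had a Pearson correlation of 0.652 and a Spearman correlation of 0.737. The 8616 other genes at that signal gave 0.373 and 0.389. Members and other genes were not matched for brightness here, as 38 of the 42 members had a mean signal of at least 500. The part of brightness in the differences was not tested. Shares and correlations are descriptions across genes, and members on the same chromosome share neighbours, so they are not independent points.

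Several core subunits lie in stretches where most genes had less signal in RS cells. Ndufs8 and Ndufv1 are close together, at chr1:210569823-210573707 and chr1:210729856-210735103, and their neighbours had medians of -0.40 and -0.41. Of the 50 neighbours of Ndufv1, 37 were called lower and 2 higher. Both genes fell by less than their neighbours' median. Ndufv2, at chr9:113137305-113157571, lies among genes with a median of -0.36, of which 32 were lower and 5 higher. Ndufa12, at chr7:30658316-30685302, had the lowest surroundings, with a median of -1.08 and 46 of 50 neighbours lower, and 45 of them had a more negative log2 fold change than Ndufa12 itself.

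The subunit with the largest increase showed the mirror image. Ndufb8, at chr1:253357878-253362936, lies among genes with a median of 0.48, of which 49 of 50 were positive and 37 were called higher. Ndufa2, Ndufv3 and Ndufb9 had log2 fold changes within 0.05 of their neighbours' medians (0.25, 0.26 and 0.25).

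A few genes stood apart from their surroundings. Ndufaf4, at chr5:43401795-43406967, exceeded 49 of its 50 neighbours, whose median was 0.26. Ndufa6, at chr7:115746460-115750317, had a more negative value than 46 of 50, around a median of -0.13. Ndufc1 was below 45 of 50 genes, which had a median of 0.10, and Ndufs3 was below 41 of 50, with a median of -0.15. In all, 6 lower and 3 higher genes lay beyond their neighbours' median by over 0.2 in the direction of their change. What sets the level of a stretch cannot be read from these arrays and was not tested.

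**Figure D5:**
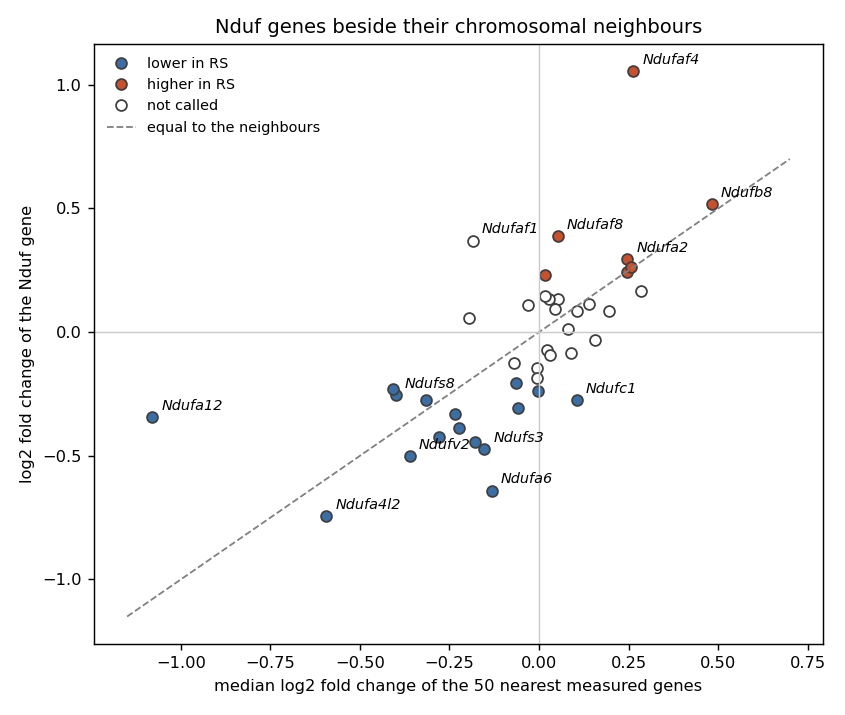
Log2 fold change of each of the 42 Nduf genes (vertical) against the median log2 fold change of its 50 nearest genes whose mean signal reached 100 (horizontal), with the line of equality. Of the 23 called genes, 22 lie in the quadrants where gene and neighbours have the same sign. Some of them, such as Ndufb10 and Ndufb7, lie close to the border between quadrants. Ndufa12 lies far to the left, and Ndufaf4 and Ndufa6 lie far from the line.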

How the data were processed

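Gene expression in 6 CRI-G1-RR and 6 CRI-G1-RS samples was analysed from the linear intensity values that the authors deposited, 1 per array for each probe set. The submitters' processing notes name GCOS 1.4. Log2 values of robust multi-chip averaging, which the Methods describe, are not what these linear values are. After quantile normalization, log2(signal + 16) entered limma 3.58.1 (R 4.3.3), with the line as sole factor and no filter on dim probe sets, and p-values were adjusted over 31099 probe sets. Tables were joined in Python 3.11.15 with pandas 2.3.3. In simulated data of 6 arrays against 6, with 31099 probe sets, 35 of 100 bright probe sets changed 1.2-fold and 99 of 100 changed 1.5-fold were recovered, with 12 false calls. The simulation changed 100 probe sets at each fold, whereas 9860 of the 31099 were called in the data. Its cutoff on p was therefore stricter, and its recovery does not give that of the real fit. The changes of dim genes are not covered by it. Precision is limited by the number of arrays, and detection calls were not used. Standard errors and p-values from limma cover the spread between samples of a line. They do not cover that between subclones, of which RS is 1.

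All Nduf symbols matched GRCr8 by gene ID, and 20 of the 42 genes have an annotated copy that could cross-hybridize (9 of the called ones). 2 probe sets with an Nduf symbol beside another were left out. The members, gene lists and neighbour windows were chosen with earlier results of these data known, and the limit of 500 for bright genes after the signals were seen. Values by array are given for core subunits, assembly factors, Ndufa4, Ndufa4l2, the 6 largest called changes in each direction among the remaining members (Ndufab1 included, and only 5 were called higher) and Ndufa8, which was added after its values were seen. Alternatives were centring on array medians, the deposited scaling alone, array weights, an intensity trend, a low-signal filter, a pseudocount of 1, leaving out cross-hybridising probe sets, the probe set of smallest p, a replicate block and leaving out each array.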

Additional observations from a re-analysis of the deposited data

Results flagged for a closer look

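Of 84 groups of 6 arrays (42 genes in each line), 11 held 1 array whose signal lay far from the other 5 by Dixon's test at the 95% level. Chance flags about 1 in 20 groups, or 4.2 here. RS replicate 2 was the outlying array for 4 genes: Ndufb3 (2120, others 1832 to 1922), Ndufb5 (5155, others 4080 to 4361), Ndufb7 (1689, others 1396 to 1489) and Ndufa3 (3102, others 2588 to 2704). RS replicate 4 was outlying for Ndufv1 (853.2, others 1016 to 1059) and Ndufa5 (2406, others 1430 to 1789). RR replicate 5 was outlying for Ndufa7 (3392, others 2263 to 2645) and Ndufb7 (1455, others 1210 to 1279). Single genes stood out in RR replicate 4 (Ndufaf5, 358.8, others 465.7 to 516.7), RS replicate 6 (Ndufs4, 692.6, others 496.9 to 564.1) and RS replicate 1 (Ndufc2, 2184, others 2325 to 2405).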

How the results depend on the processing

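Over 21 alternatives, 12 of which left out 1 array each, 19 of the 23 called genes kept their call and none changed sign. The other 4, Ndufs4, Ndufv1, Ndufb9 and Ndufb7, lost it under at least 1. An intensity trend raised the genes higher in RS cells from 7 to 11. Leaving out 1 array gave 21 to 23 probe sets called, 7 to 8 genes higher and 14 to 16 lower. The sample labels state that passages were collected in pairs but not that a number marks a pair. Same-numbered arrays deviated together with correlations of -0.06 to 0.08, which cannot show whether a number marks a pair. With the replicate number as a block, 22 probe sets were called, 6 genes were higher and 16 lower, Ndufb7 (0.23, adjusted p = 0.0633) no longer passed, and no other call changed. Only 5 genes that were not called changed sign. Centring on array medians gave Ndufb1 -0.04, Ndufb11 -0.01 and Ndufb5 -0.01, the deposited scaling alone gave Ndufb1 -0.02, and the probe set of smallest p gave Ndufa7 0.12. Leaving out 1 array gave -0.01 to 0.05 for Ndufb1, -0.02 (without RR replicate 4) to 0.10 for Ndufaf5, and -0.12 to 0.01 (without RR replicate 5) for Ndufa7. Some genes of high signal shifted downwards from the main fit with the deposited scaling alone and with centring on array medians. Ndufa12 went from -0.34 to -0.42 and -0.44, and Ndufb4 from -0.03 to -0.11 and -0.13. Others moved little, such as Ndufs8, from -0.25 to -0.25 and -0.27. The cause of these shifts was not tested. Probe sets with little signal, such as Ndufaf1, Ndufaf7 and Ndufa4l2, limit what the arrays can show.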
